A study of Mustela putorius furo with 2 samples.

Results

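CRYAB (ENSMPUG00000003604) and MIF (ENSMPUG00000002974) were followed in single nuclei of ferret cortex, from tissue with the genotype label DCX knockout. They are 2 of the 28156 features in the deposited tables, 14296 of which carry a symbol. Both were chosen by their measured levels in these 2 libraries, which were higher in the deeper than in the upper band of the cortex in several cell classes. Their differences between bands are therefore given as descriptions, without a test.

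The product of DCX, doublecortin, binds microtubules in migrating neurons, and people who lack it have a smooth cortex (lissencephaly) or a double cortex. The data are single-nucleus RNA profiles of frozen somatosensory cortex on the 10x Genomics droplet platform, with 1 library from the upper band and 1 from the deeper band. Both libraries have the genotype label DCX knockout, whereas the series' own text speaks of a knockdown, and the labels used here give no age, sex or number of animals. No wild-type tissue was analysed here, and an effect of the band cannot be told apart from one of the library or the animal.

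CRYAB encodes alpha-B crystallin, a small heat shock protein that holds unfolding proteins without using ATP and binds intermediate filaments such as desmin and GFAP. In the brain it is known from oligodendrocytes and from astrocytes under stress, and it collects with GFAP in the Rosenthal fibres of Alexander disease. MIF encodes macrophage migration inhibitory factor, a cytokine with a tautomerase fold that neurons and many other cells store ready-made. Secreted MIF binds CD74 with CD44 as coreceptor, and also the chemokine receptors CXCR2, CXCR4 and ACKR3. It is known for counteracting glucocorticoids.

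The deposited tables held 66253015 unique molecular identifiers (UMIs, 1 per captured RNA molecule) over 7151 barcodes in the upper band and 78352064 over 9694 barcodes in the deeper band, and 24 barcode sequences occurred in both. After filtering, 6261 and 8150 nuclei were left, with median depths of 7992 and 4887.5 UMIs. DCX itself stood at 78.5 and 77.2 CPM, the usual scaling of UMIs to the total, with no wild type to set this against. Levels below are CPM of all UMIs of a class in a library, ratios are log2 of deeper over upper CPM, and ranges in parentheses are 95% intervals for counting error only. The nuclei formed 27 clusters, found with CRYAB and MIF left out of the clustering, and 24 of them were named for 7 classes by their resemblance to marker lists. All 14 oligodendrocyte, 10 microglia and 7 oligodendrocyte precursor markers in the table were highest in their own class. The same held for 11 of 12 astrocyte, 6 of 9 excitatory, 8 of 10 inhibitory and 10 of 13 vascular markers.

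CRYAB was 4.01-fold higher in the deeper band in oligodendrocyte-like nuclei, its class of highest level, and 4.73-fold higher in inhibitory neuron-like nuclei. In excitatory neuron-like and astrocyte-like nuclei it was 3.56-fold and 3.58-fold higher. MIF was 2.39-fold higher in excitatory and 2.83-fold higher in inhibitory neuron-like nuclei of the deeper band, and 1.32-fold and 1.57-fold in astrocyte-like and oligodendrocyte-like nuclei. Whether these ratios differ between classes was not tested. Over all nuclei CRYAB had 469 upper-band UMIs (8.96 CPM, 8.17 to 9.81) and 2258 deeper-band UMIs (42.3 CPM, 40.6 to 44.1), a log2 ratio of 2.24 (2.10 to 2.39). MIF had 856 UMIs (16.4 CPM, 15.3 to 17.5) and 1992 UMIs (37.3 CPM, 35.7 to 39.0), a log2 ratio of 1.19 (1.07 to 1.31). Both genes were thus past 2-fold over all nuclei, although MIF was under it, at 0.81, when the CPM of each nucleus was averaged. Past 2-fold were also 0.811% of the 16900 genes with at least 50 UMIs. Genes with that many UMIs are called tested below, in the sense of compared with 2-fold, since 1 library per band allows no statistical test. The median log2 ratio of those genes was -0.01.

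**Figure D1:**
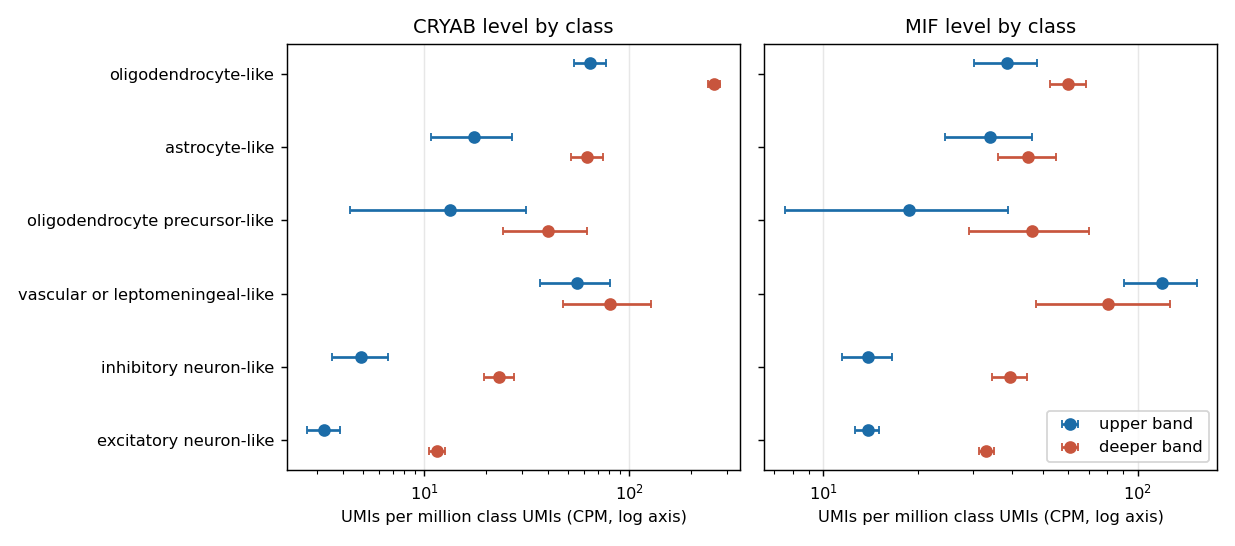
CRYAB and MIF in CPM (log axis) by cell class, with 1 point per library and bars for the 95% Poisson interval. CRYAB is highest in oligodendrocyte-like nuclei in both bands (64.6 and 259.1 CPM), and the deeper-band point of MIF lies above the upper-band point in every class drawn except the vascular or leptomeningeal-like one (119.4 and 80.3 CPM).

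Oligodendrocytes are the cells in which CRYAB is best known in healthy brain. In oligodendrocyte-like nuclei the upper band gave 128 CRYAB UMIs in 821 nuclei, or 64.6 CPM (53.9 to 76.9). The deeper band gave 1008 UMIs in 1954 nuclei, or 259.1 CPM (243.4 to 275.6). The intervals of the bands lay far apart, and the log2 ratio was 2.00 (1.74 to 2.28). At least 2-fold higher in this class were 0.591% of 8633 genes tested, CRYAB among them. A single gene had a larger ratio there than CRYAB. MIF did not reach 2-fold in these nuclei, with 76 UMIs (38.4 CPM, 30.2 to 48.0) and 234 UMIs (60.2 CPM, 52.7 to 68.4) and a log2 ratio of 0.65 (0.27 to 1.04). In this class 255 genes had a larger ratio than MIF.

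The higher CRYAB level was found in every oligodendrocyte-like cluster. Cluster 6 had 65.0 and 256.3 CPM (log2 ratio 1.98), and cluster 8 had 63.1 and 276.4 CPM (2.13). Finer clustering, also without CRYAB and MIF, split off nuclei led by KLK6, a secreted serine protease of oligodendrocytes, and by CRYAB and ERMN, which encodes the myelin-forming cell's cytoskeletal protein ermin. That group held 31 upper-band and 386 deeper-band nuclei, with 3 and 286 CRYAB UMIs and the highest oligodendrocyte-like level in the deeper band, 435.5 CPM (386.5 to 489.0). The 3 other oligodendrocyte-like groups at that setting stood at 215.7, 258.2 and 249.0 CPM in the deeper band and at 70.3, 42.5 and 58.1 CPM in the upper band. The KLK6 group was thus mostly made of deeper-band nuclei, and the other groups showed the difference as well, with log2 ratios from 1.62 to 2.60.

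Excitatory neurons are the projection neurons of the cortex and the most numerous class here. Their CRYAB level was the lowest of the 7 classes in the deeper band. It went from 121 UMIs in 3184 nuclei (3.24 CPM, 2.69 to 3.87) to 441 UMIs in 3454 nuclei (11.5 CPM, 10.5 to 12.7), a log2 ratio of 1.83 (1.54 to 2.14). MIF went from 517 UMIs (13.8 CPM, 12.7 to 15.1) to 1263 UMIs (33.1 CPM, 31.3 to 34.9), a log2 ratio of 1.26 (1.11 to 1.41). Both were past 2-fold, against 0.797% of 15553 genes tested in this class. Larger ratios were found for 8 genes in the case of CRYAB and for 50 in the case of MIF.

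The make-up of the excitatory class differed between bands, so its subtypes were read separately. Upper-layer-like neurons (1416 and 2931 nuclei) had CRYAB at 2.33 and 11.4 CPM, which is 2.30 (1.82 to 2.81) in log2. For deep-layer-like neurons (1106 and 314 nuclei) the levels were 4.23 and 13.4 CPM and the log2 ratio was 1.67 (1.05 to 2.27). Deep-layer-like neurons thus had the higher point value of the pair in both bands, with overlapping intervals. MIF stood at 13.1 and 32.0 CPM in upper-layer-like neurons (log2 ratio 1.29, 1.08 to 1.50) and at 14.1 and 36.9 CPM in deep-layer-like neurons (1.39, 1.04 to 1.73). Excitatory nuclei of no named subtype had CRYAB at 3.60 and 10.7 CPM and MIF at 14.9 and 41.3 CPM. With the same cluster weights in both bands the class ratio was 1.87 for CRYAB and 1.31 for MIF, close to the values above.

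Inhibitory neurons are the GABA-releasing interneurons that enter the cortex from the ganglionic eminences. In these nuclei CRYAB went from 42 UMIs in 1022 nuclei (4.90 CPM, 3.53 to 6.62) to 142 UMIs in 770 nuclei (23.1 CPM, 19.5 to 27.3), a log2 ratio of 2.24 (1.73 to 2.77). MIF went from 119 UMIs (13.9 CPM, 11.5 to 16.6) to 241 UMIs (39.3 CPM, 34.5 to 44.6), and its log2 ratio of 1.50 (1.18 to 1.83) was its largest among the classes with at least 50 MIF UMIs. At least 2-fold higher were 0.497% of 11880 genes tested in this class, both genes among them. A single gene had a larger ratio than CRYAB there and 9 had a larger ratio than MIF. When each nucleus was thinned to 1500 UMIs, the CRYAB ratio of this class rested on 13 and 26 UMIs and came to 1.40 (0.39 to 2.48).

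Interneurons resembling those of the caudal ganglionic eminence (CGE, 308 and 263 nuclei) had CRYAB at 4.61 (2.30 to 8.25) and 35.0 CPM (26.7 to 45.0), a log2 ratio of 2.92 (1.98 to 4.00). Those resembling the medial ganglionic eminence (MGE, 689 and 474 nuclei) had it at 4.85 (3.25 to 6.96) and 18.1 CPM (14.3 to 22.7), a log2 ratio of 1.90 (1.27 to 2.57). In CPM the subtypes were therefore alike in the upper band, while in the deeper band their intervals did not overlap. Deeper-band CGE-like nuclei were shallower than MGE-like ones, with medians of 5836 and 8156.5 UMIs. Per nucleus they gave 0.228 and 0.160 CRYAB UMIs. Whether the ratios of the subtypes differ, and the part of depth in their levels, was not tested. MIF stood at 15.9 and 50.7 CPM in CGE-like neurons and at 13.5 and 35.0 CPM in MGE-like neurons, with log2 ratios of 1.67 (1.10 to 2.26) and 1.37 (0.97 to 1.78).

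Astrocytes carry GFAP filaments, to which the CRYAB protein binds. Astrocyte-like nuclei had 21 CRYAB UMIs in 388 upper-band nuclei (17.4 CPM, 10.8 to 26.6) and 124 in 806 deeper-band nuclei (62.3 CPM, 51.8 to 74.3), a log2 ratio of 1.84 (1.16 to 2.58). CRYAB was past 2-fold and MIF was not, against 0.881% of 7491 genes tested. The MIF level was 34.0 CPM (24.4 to 46.1, 41 UMIs) and 44.7 CPM (35.9 to 55.1, 89 UMIs), and its log2 ratio of 0.40 had an interval that held 0 (-0.15 to 0.97). In this class 876 genes had a larger ratio than MIF. An astrocyte-like cluster led by GFAP and CD44 held 4 upper-band and 87 deeper-band nuclei and had CRYAB at 139.9 CPM (87.7 to 211.8) in the deeper band. Its upper-band level was 141.6 CPM on 2 UMIs, a log2 ratio of -0.02 (-2.04 to 3.12), too few for a direction. The main astrocyte-like cluster, without it, had CRYAB at 15.9 and 55.7 CPM, a log2 ratio of 1.80.

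Oligodendrocyte precursors, the dividing cells from which oligodendrocytes arise, gave few UMIs. CRYAB had 5 UMIs in 126 nuclei (13.4 CPM, 4.35 to 31.3) and 19 in 193 nuclei (40.0 CPM, 24.1 to 62.4), a log2 ratio of 1.58 (0.11 to 3.35). MIF had 7 UMIs (18.8 CPM, 7.55 to 38.7) and 22 UMIs (46.3 CPM, 29.0 to 70.1), a log2 ratio of 1.30 (0.03 to 2.77). Thinning to 1500 UMIs per nucleus brought CRYAB to 0.96 (-1.04 to 3.48), under 2-fold, and the MIF interval also held 0 at a minimum of 1000 genes (-0.01 to 2.73) and at finer clustering (-0.01 to 2.74). The values of both genes without these changes were past 2-fold, but with under 50 UMIs neither was among the 3381 genes tested in this class, of which 0.946% were past 2-fold. Microglia-like nuclei, the immune cells of the brain, had no CRYAB UMI in 47 upper-band nuclei, where 3 UMIs would be 36.7 CPM, and 5 UMIs in 66 deeper-band nuclei (59.9 CPM, 19.4 to 139.8). MIF had 2 and 7 UMIs there, too few for a direction.

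The vascular or leptomeningeal-like cluster was the class where MIF pointed the other way. MIF had 58 UMIs in 262 upper-band nuclei (119.4 CPM, 90.7 to 154.4) and 18 UMIs in 154 deeper-band nuclei (80.3 CPM, 47.6 to 126.9). Its log2 ratio of -0.57 had an interval that held 0 (-1.42 to 0.21). CRYAB had 27 UMIs (55.6 CPM, 36.6 to 80.9) and 18 UMIs (80.3 CPM, 47.6 to 126.9), with a log2 ratio of 0.53 (-0.42 to 1.44), so neither gene differed beyond counting error. Genes of fibroblasts and leptomeninges in this cluster were lower in the deeper band, with log2 ratios of -1.59 for the laminin chain LAMA2, -1.21 for the proteoglycan DCN and -1.28 for the collagen COL1A2. The endothelial receptor FLT1 was higher, at 0.72 (0.53 to 0.91), but other vascular markers had intervals that held 0. These were PECAM1 at -0.02 (-0.62 to 0.56), VWF at -0.05 (-0.43 to 0.31) and ADGRL4 at 0.34 (-0.08 to 0.74). Of 25 ribosomal protein genes tested in this cluster none was higher in the deeper band, beside 45.3% of all genes tested there, and the median of the 25 was -1.50. Of all genes tested in this cluster 6.75% were at least 2-fold higher and 10.6% at least 2-fold lower, and the part of the cluster's make-up in the MIF value was not tested.

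The order of the classes in CPM was read within each band. For CRYAB in the deeper band, oligodendrocyte-like nuclei stood above all other classes beyond counting error. The vascular, astrocyte, microglia and precursor classes overlapped below them. Inhibitory neurons overlapped only with precursors and microglia, and excitatory neurons were lowest. In the upper band the oligodendrocyte and vascular classes overlapped at the top and astrocytes followed with precursors. Inhibitory neurons overlapped with excitatory neurons at the bottom. For MIF in the upper band the vascular class stood highest, apart from oligodendrocyte-like and astrocyte-like nuclei, and both kinds of neuron were lowest at 13.8 and 13.9 CPM. In the deeper band every neighbouring pair of classes overlapped for MIF, with excitatory neurons still lowest. The classes differed in depth, however, with deeper-band medians from 1119 UMIs (vascular) to 10400 (excitatory). Per deeper-band nucleus MIF was highest in excitatory neurons (0.366 UMIs), against 0.120 in oligodendrocyte-like and 0.110 in astrocyte-like nuclei. CRYAB per nucleus stayed highest in oligodendrocyte-like nuclei (0.516), but inhibitory neurons (0.184) lay above astrocyte-like nuclei (0.154).

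Cluster by cluster, the direction rarely changed. Of 23 clusters with at least 10 CRYAB UMIs over both bands and 10 nuclei in each band, 22 had the higher CRYAB level in the deeper band, and in 18 of them the interval lay above 0. The exception was excitatory cluster 20, led by NPR3, CRHR2 and KCNG4, with 14 and 1 UMIs in 141 and 21 nuclei and a log2 ratio of -0.99 (-6.40 to 1.72). MIF was higher in the deeper band in 23 of 24 clusters, 17 with an interval above 0, and the exception was the vascular cluster. The 4 inhibitory clusters that could be read did not overlap between bands for either gene, and the same held for 1.94% of 10082 genes with at least 10 UMIs in each of them, but both genes were picked for this difference and nothing is read from that share. Their CRYAB levels ran from 3.74 to 6.26 CPM (upper) and from 17.4 to 32.0 CPM (deeper), and their MIF levels from 10.6 to 17.3 CPM and from 31.4 to 49.5 CPM. Excitatory clusters overlapped for MIF, at 12.1 to 29.6 CPM and 23.2 to 43.7 CPM. Clusters of 1 library share that library, so these counts are not counts of replicates. In the neuronal subclusters CRYAB was higher in the deeper band in 23 of 24 and MIF in 34 of 34, with intervals above 0 in 16 and 24 of them. Both genes were picked for this direction, so the counts of clusters and subclusters are descriptions. The share of all genes with as steady a direction was not computed.

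**Figure D2:**
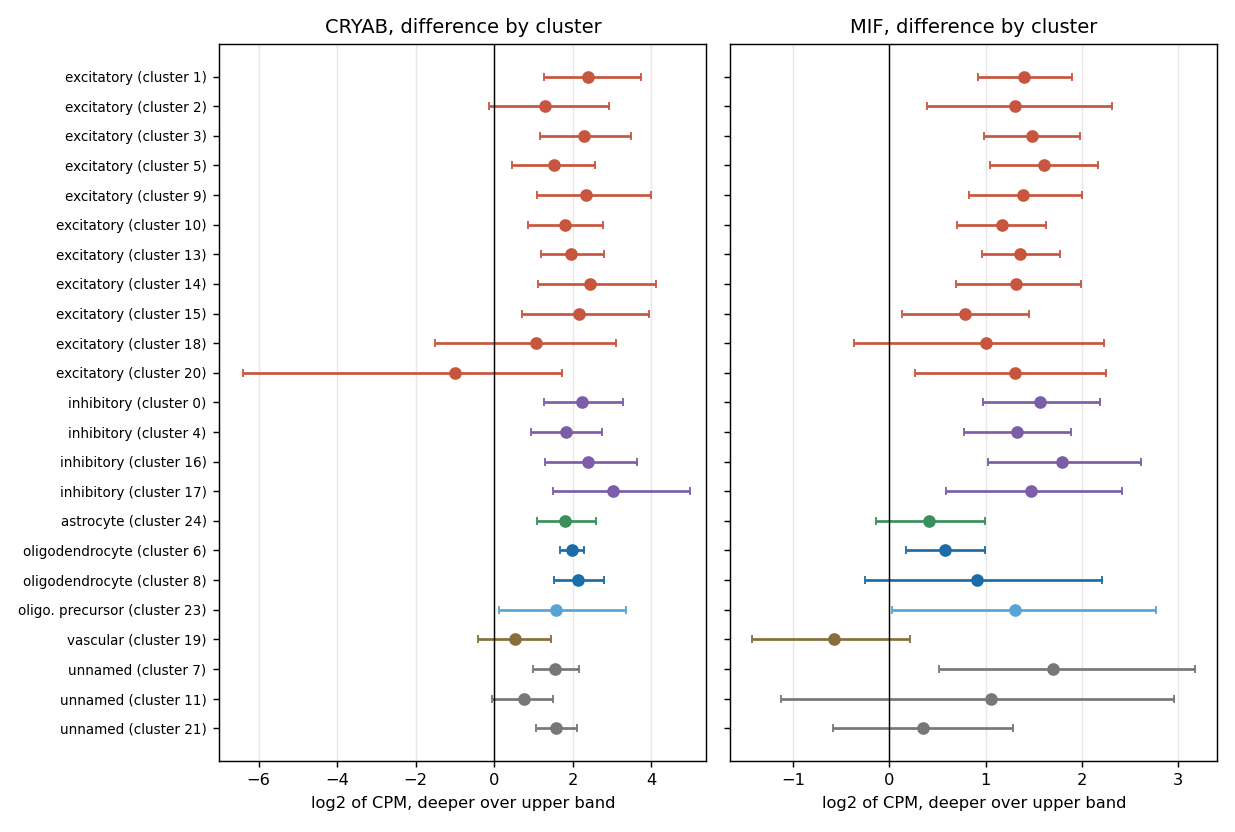
Log2 ratio of deeper-band over upper-band CPM for CRYAB and MIF in each cluster, with bars for the 95% counting interval and a line at 0. The 23 clusters that could be read for CRYAB are drawn, and for each gene all but 1 of the points lie right of 0, the exceptions being excitatory cluster 20 (-0.99) and the vascular or leptomeningeal-like cluster (-0.57).

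The 3 clusters left without a name held 26.7% of the upper-band and 22.2% of the deeper-band CRYAB UMIs. The cluster led by ABCA9, EGFLAM and ENPP6, the last a choline phosphodiesterase of newly formed oligodendrocytes, had 106 and 570 nuclei and CRYAB at 95.9 and 279.6 CPM, a log2 ratio of 1.54. With it the oligodendrocyte-like ratio was 1.95 for CRYAB and 0.78 for MIF. A cluster with raised microglial and oligodendrocyte markers had CRYAB at 43.4 and 129.8 CPM, and one with astrocyte and oligodendrocyte markers had it at 54.5 and 91.6 CPM, with an interval that held 0 (-0.06 to 1.51). With 13.1% of the upper-band and 24.0% of the deeper-band nuclei, the oligodendrocyte-like class gave 27.3% and 44.6% of the CRYAB UMIs. MIF came mostly from excitatory neurons, which gave 60.4% and 63.4% of its UMIs.

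CRYAB and MIF were sparse in single nuclei. A CRYAB UMI was found in 13.8% of upper-band and 36.2% of deeper-band oligodendrocyte-like nuclei, and at least 2 UMIs in 1.71% and 11.0%. The highest count in 1 such nucleus was 3 in the upper and 9 in the deeper band. After each nucleus had been thinned to 1500 UMIs, which left out 80 and 415 shallower nuclei, the shares with a CRYAB UMI were 8.77% (6.84 to 11.0) and 28.9% (26.7 to 31.3). Excitatory neurons, in which little CRYAB is known, gave thinned shares of 0.473% and 1.60% with unthinned median depths of 10750.5 and 10400 UMIs, against 2197 and 1844 in oligodendrocyte-like nuclei. The share of oligodendrocyte-like nuclei with CRYAB was thus far above that of excitatory neurons in each band.

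The thinned share with a CRYAB UMI was 1.29% and 3.41% in inhibitory neurons and 3.48% and 9.02% in astrocyte-like nuclei. For MIF it was 1.96% and 5.22% in excitatory neurons and 2.19% and 7.61% in inhibitory neurons, with intervals that did not overlap between bands. Before thinning, 14.9% and 29.5% of excitatory and 10.7% and 26.5% of inhibitory nuclei had a MIF UMI. MIF shares overlapped between bands for astrocyte-like (4.55% and 7.16%) and for oligodendrocyte-like nuclei (6.61% and 8.90%). Over all thinned deeper-band nuclei MIF was found in 9.78% (7.82 to 12.04) of those with CRYAB and in 6.47% (5.89 to 7.09) of those without, and in the upper band in 2.78% (0.76 to 6.96) and 2.89% (2.48 to 3.36). Within deeper-band oligodendrocyte-like nuclei the shares were 9.66% and 8.59%, with overlapping intervals, and within upper-band ones 1.54% (0.04 to 8.28) and 7.10% (5.28 to 9.30), on 1 nucleus with both genes.

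Free RNA in droplets was not removed, and the UMIs per nucleus bear on what the low CRYAB levels hold. In the deeper band CRYAB gave 0.128 UMIs per nucleus in excitatory neurons, 0.184 in inhibitory neurons, 0.154 in astrocyte-like nuclei, 0.0984 in precursors, 0.117 in vascular nuclei and 0.0758 in microglia, against 0.516 in oligodendrocyte-like nuclei. In the upper band the first 4 of these values were 0.0380, 0.0411, 0.0541 and 0.0397, against 0.156. Vascular nuclei gave 0.103 and microglia none there. In the classes other than oligodendrocytes the values per nucleus thus ran up to 0.103 in the upper band and from 0.0758 to 0.184 in the deeper band. Within inhibitory neurons of the deeper band they did not follow the depth of the nucleus, with 0.189 per nucleus at 2000 to 5000 UMIs, 0.182 at 5000 to 10000 and 0.193 at 10000 to 20000. In inhibitory neurons of the upper band they were 0.0254, 0.0380 and 0.0560 in these ranges, on 3, 24 and 13 UMIs. In excitatory neurons of the deeper band they were 0.0714, 0.115 and 0.143 in the same ranges. How much of the CRYAB signal outside oligodendrocytes is free RNA was not tested.

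The listed oligodendrocyte transcripts differed less between bands than CRYAB in neurons when summed. The summed level of 7 of them (MBP, MOBP, MAG, MOG, CNP, ERMN and UGT8, which make or maintain myelin) went from 60.2 to 42.3 CPM in excitatory neurons, a log2 ratio of -0.51 (-0.60 to -0.41). It went from 63.6 to 80.8 CPM in inhibitory neurons, a ratio of 0.34 (0.17 to 0.52), and was 8076 and 7864 CPM in oligodendrocyte-like nuclei, a ratio of -0.04. Per 100 UMIs of these 7 genes, CRYAB had 5.38 and 27.3 UMIs in excitatory neurons, 7.69 and 28.6 in inhibitory neurons, and 0.80 and 3.29 in oligodendrocyte-like nuclei. Relative to these genes, CRYAB was thus higher in neurons than in oligodendrocytes in both bands. The make-up of the free RNA was not measured, and its part in these values was not tested. Single genes varied. In inhibitory neurons all 4 genes of the list tested had a ratio above 0, namely ERMN, past 2-fold at 1.00 (0.44 to 1.58), UGT8 at 0.44, MOBP at 0.22 and MBP at 0.06. Of all genes tested in this class 49.0% were above 0 and 0.497% past 2-fold. In excitatory neurons MBP had -0.90, ERMN 0.79 and KLK6, with 34 and 123 UMIs, 1.82. KLK6 is among the genes found below to follow CRYAB most closely. The others of them had excitatory ratios of 0.97 (TUBB4A), 0.69 (APOD), 0.57 (SPP1) and 0.52 (TF). In inhibitory neurons their ratios were 0.76, 0.94, 0.90 and 0.69, and KLK6, with 15 and 32 UMIs, had 1.58.

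MIF followed the depth of excitatory nuclei more closely. In the deeper band it gave 0.143, 0.294 and 0.411 UMIs per nucleus at 2000 to 5000, 5000 to 10000 and 10000 to 20000 UMIs, and in inhibitory neurons 0.228, 0.330 and 0.345. In these 3 depth ranges the MIF log2 ratio of excitatory neurons was 0.94 (-0.39 to 2.44), 1.47 (1.18 to 1.77) and 1.10 (0.92 to 1.30), and above 20000 UMIs it was 1.54 (1.05 to 2.04). In inhibitory neurons it was 1.38 (0.30 to 2.58), 1.70 (1.27 to 2.14) and 1.17 (0.55 to 1.81). The lowest of the excitatory ranges, with 7 and 18 UMIs, was thus under 2-fold with an interval that held 0. The CRYAB log2 ratio of excitatory neurons was 1.75, 1.95 and 1.85 in the same ranges and 0.87 (-0.20 to 1.96) above 20000 UMIs. CRYAB in oligodendrocyte-like nuclei under 2000 UMIs stood at 46.6 and 280.7 CPM (2.59, 1.98 to 3.28), and at 2000 to 5000 UMIs at 72.7 and 236.1 CPM (1.70, 1.38 to 2.03). The deeper band was higher for CRYAB in both depth ranges.

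**Figure D3:**
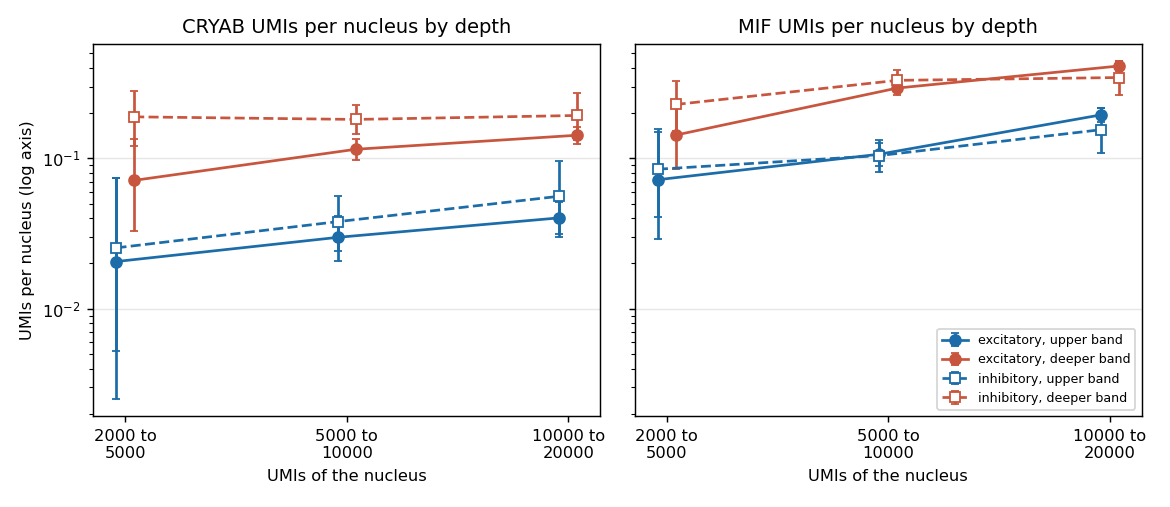
Mean UMIs of CRYAB and MIF per nucleus (log axis) by the depth of the nucleus in UMIs, for both bands, in excitatory and inhibitory neuron-like nuclei, with bars for the 95% Poisson interval. From 2000 to 20000 UMIs in deeper-band inhibitory neurons, CRYAB stays between 0.182 and 0.193 and MIF goes from 0.228 to 0.345. In deeper-band excitatory neurons CRYAB goes from 0.0714 to 0.143 and MIF from 0.143 to 0.411.

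Ratios as large as that of CRYAB were rare. Of 15813 genes tested in at least 1 of 5 classes, 2 were at least 2-fold higher in the deeper band in 4 classes, and CRYAB was the one of them with a symbol. Of the 15813 genes, 22 were so in 2 classes, MIF among them through the excitatory and inhibitory neurons. None was so in all 5 classes, in which 3096 genes could be tested, CRYAB and MIF not among them. This restates how the genes were picked and is no test of them. In excitatory neurons 5% of genes lay below -0.73 and 5% above 0.54. In oligodendrocyte-like nuclei the same bounds were -0.48 and 0.54, so that CRYAB at 2.00 stood far outside and MIF at 0.65 a little outside.

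**Figure D4:**
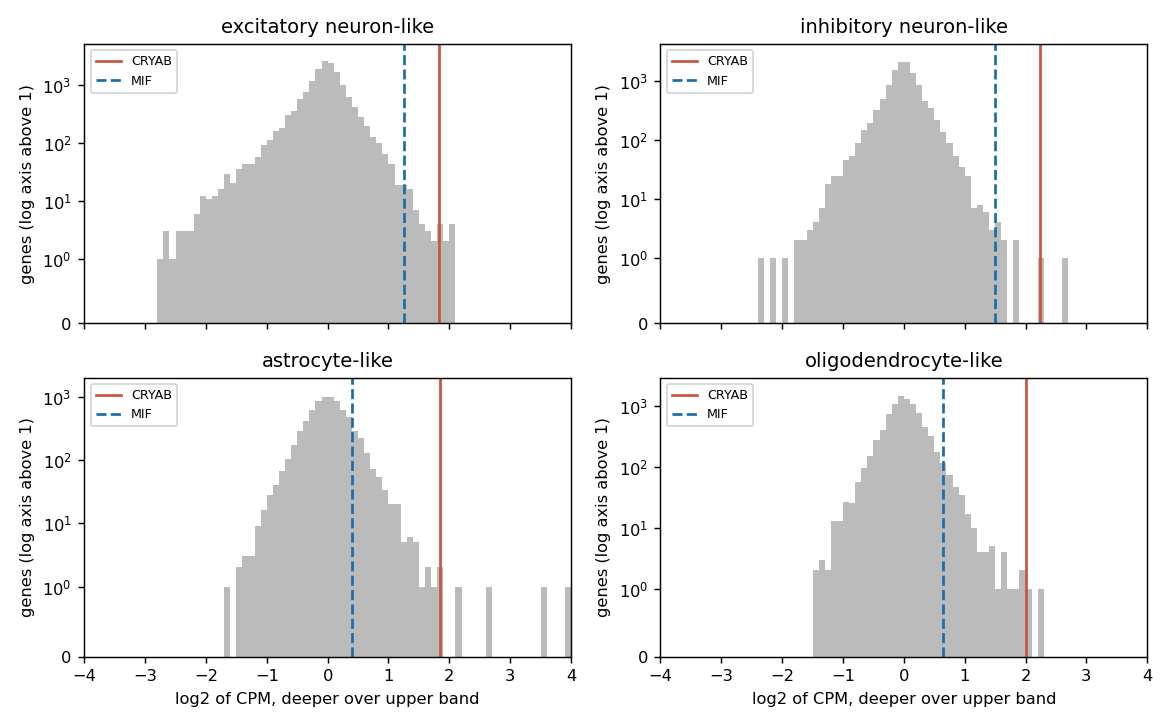
Number of genes with at least 50 UMIs by their log2 ratio of deeper-band over upper-band CPM, with a panel per class, the end bins also holding values beyond the axis, and lines for CRYAB and MIF. The bulk of genes lies around 0, CRYAB lies at 1.83, 2.24, 1.84 and 2.00 in excitatory neuron-like, inhibitory neuron-like, astrocyte-like and oligodendrocyte-like nuclei, and MIF lies at 1.26, 1.50, 0.40 and 0.65.

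The genes whose level followed each gene most closely were sought over 45 points, each a cluster in a band, among 8673 genes. The points share 2 libraries and differ in depth, so r is a description. They hold both bands, so the band difference of CRYAB or MIF is part of what was matched. The band ratios of the genes found are thus no separate result. CRYAB was closest to TUBB4A, a tubulin of myelinating cells (Pearson r 0.942), SPP1, the secreted glycoprotein osteopontin (0.933), APOD, a lipid carrier (0.921), KLK6 (0.921) and TF, transferrin (0.898). All 5 were higher in the deeper band in oligodendrocyte-like nuclei, by log2 ratios of 0.77 for TUBB4A, 0.83 for SPP1, 0.96 for APOD, 1.19 for KLK6 and 0.54 for TF, each smaller than that of CRYAB. MIF was closest to PSMA7, a proteasome subunit (0.878), TMEM160 (0.867), GABARAP, which acts in autophagosome formation (0.865), RPL27A, a ribosomal protein (0.858), and IRF8, a transcription factor (0.857). Those genes had log2 ratios in excitatory neurons of 0.76 for PSMA7, 0.85 for TMEM160, 0.69 for GABARAP, 0.50 for RPL27A and 0.65 for IRF8, against 1.26 for MIF. Between CRYAB and MIF r was 0.674, and 0.534 with the mean of each band taken out. With these means taken out, r ran from 0.924 (KLK6) to 0.962 (TF) for the genes closest to CRYAB. For those closest to MIF it ran from 0.790 (IRF8) to 0.865 (RPL27A).

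No relative of CRYAB that could be tested reached 2-fold over all nuclei, where only 0.811% of all genes tested did. Of 9 other small heat shock proteins listed, 5 were in the table and 2 had the 50 UMIs needed. HSPB1, which caps unfolding proteins and actin, had 221 and 200 UMIs and a ratio of -0.17 (-0.45 to 0.11). HSPB8, a partner of BAG3 in the removal of misfolded proteins, had 897 and 1316 UMIs and a ratio of 0.53 (0.40 to 0.65). HSPB1 was nevertheless past 2-fold in inhibitory neurons (36 and 54 UMIs, 1.07, 0.43 to 1.72) and in astrocyte-like nuclei (12 and 50 UMIs, 1.34, 0.41 to 2.38), and HSPB8 reached 0.83 in excitatory neurons. Of genes tested in the inhibitory and astrocyte-like classes 0.497% and 0.881% were past 2-fold. In the vascular or leptomeningeal-like cluster HSPB1 was at -2.78, past 2-fold lower as were 10.6% of genes tested there. The HSPB1 value over all nuclei thus holds classes of opposite direction. HSPB3, HSPB6 and HSPB7 stayed under the minimum.

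Larger chaperones and their regulators did not reach 2-fold over all nuclei, where only 0.811% of all genes tested did. Of 20 listed 13 were tested, and 11 had a ratio above 0, as did 48.9% of all genes tested over all nuclei. Their median was 0.17, beside -0.01 for all genes. HSPA5, the chaperone of the endoplasmic reticulum, had the largest at 0.77 (0.66 to 0.89), followed by the cytosolic HSP90AB1 at 0.65 (0.61 to 0.68) and the cochaperone DNAJB1 at 0.36. HSF1, the transcription factor of the heat shock response, had -0.02 (-0.11 to 0.06), its relative HSF4 had -0.43 (-1.01 to 0.14), and the cochaperone BAG3 had 0.00 (-0.34 to 0.35). The inducible HSPA1A and HSPA1B had no row under those symbols in what was analysed here.

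Among the filament proteins that CRYAB binds, GFAP had 139 and 175 UMIs (log2 ratio 0.30, -0.02 to 0.64) and VIM 255 and 70 (-1.89, -2.30 to -1.51). In astrocyte-like nuclei GFAP stood at 61.4 and 72.9 CPM, a ratio of 0.25 (-0.17 to 0.67), beside 1.84 for CRYAB. VIM, past 2-fold lower over all nuclei as were 1.87% of genes tested, had 4 and 3 UMIs there, and 179 and 6 in the vascular or leptomeningeal-like cluster, where it was -3.78. Of the other listed genes of reactive astrocytes, CD44 had 10 and 33 UMIs in astrocyte-like nuclei, CHI3L1 2 and 2, STEAP4 0 and 3 and LCN2 none, all under the minimum.

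MIF's receptors showed no difference of its size. CD74, its main receptor, had 415 and 564 UMIs over all nuclei and a log2 ratio of 0.41 (0.23 to 0.60). The coreceptor CD44 had -0.28 (-0.76 to 0.20), CXCR4 0.10 (-0.25 to 0.46) and ACKR3 -0.04 (-0.20 to 0.12). None of the 4 tested was thus past 2-fold, beside 0.811% of all genes. ACKR3 was lower in deeper-band inhibitory neurons, with 250 and 111 UMIs and a ratio of -0.69 (-1.02 to -0.36), the class where MIF itself was at 1.50. Of the 3 receptors tested in that class, however, 2 had a ratio above 0, with a median of 0.37 and a maximum of 0.71. Of all genes tested there 49.0% were above 0. The MIF paralog DDT was not matched by symbol.

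Of the binding partners of MIF 3 were tested over all nuclei, and none was past 2-fold, beside 0.811% of all genes. RPS19, a ribosomal protein that binds MIF, had 0.48 (0.38 to 0.58), the redox protein TXN 0.24 (0.10 to 0.39) and AIFM1, the mitochondrial protein that brings MIF to DNA, 0.11 (-0.05 to 0.26). In the glucocorticoid pathway, which MIF opposes, the receptor NR3C1 had -0.02 (-0.05 to 0.01) and its targets FKBP5, TSC22D3 and DUSP1 had 0.09, 0.22 and -0.08. None of those 4 was past 2-fold, beside the same 0.811% of all genes.

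MIF is also a target of hypoxia signalling. Of 9 hypoxia and glycolysis genes tested over all nuclei 6 had a ratio above 0, as did 48.9% of all genes tested. Their median was 0.25 and none was past 2-fold, beside 0.811% of all genes. The glycolytic enzyme ALDOA was the highest at 0.87 (0.78 to 0.96). It was past 2-fold in excitatory neurons, as were 0.797% of genes tested there, with 896 and 1899 UMIs and a ratio of 1.05 (0.94 to 1.17). The hypoxia factor HIF1A had 0.22, and VEGFA and SLC2A1, which follow it, had -0.08 and -0.16. In lists of housekeeping genes 31 of 32 cytosolic ribosomal protein genes had a ratio above 0, with a median of 0.28, and so did 35 of 37 nuclear-encoded genes of the respiratory chain, with a median of 0.21, beside the 48.9% and -0.01 of all genes. None of either list was past 2-fold over all nuclei. In excitatory neurons the medians of these lists were 0.26 and 0.21 and in inhibitory neurons 0.39 and 0.29, beside MIF at 1.26 and 1.50. The part of these values in the MIF ratio was not tested.

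**Figure D5:**
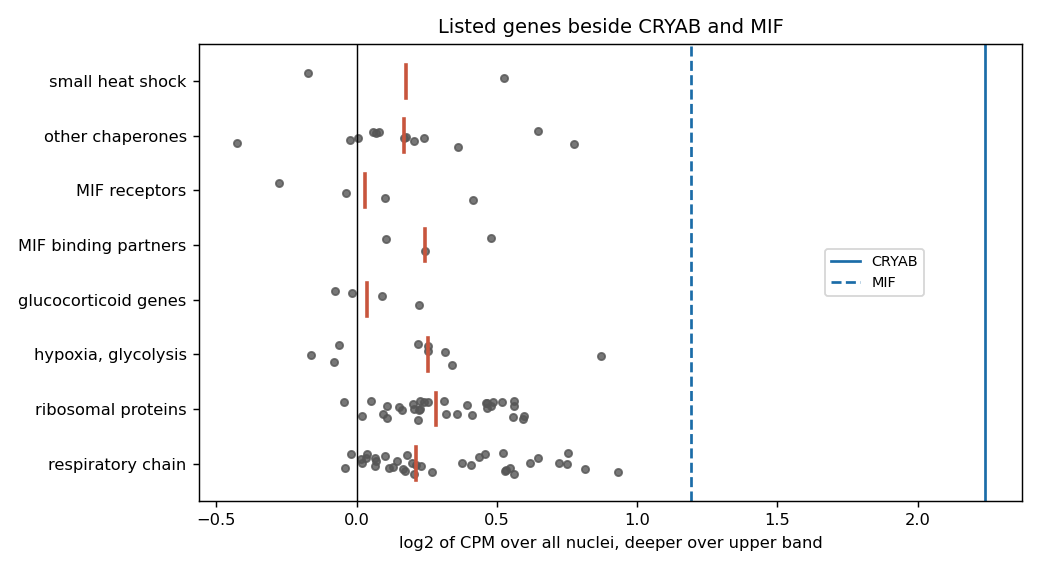
Log2 ratio of deeper-band over upper-band CPM for each gene tested over all nuclei in 8 of the lists, with a red bar at each list's median and blue lines for CRYAB (solid, 2.24) and MIF (dashed, 1.19). The genes drawn lie between -0.43 (HSF4) and 0.93 (NDUFV1), and none reaches the MIF line. The oligodendrocyte transcripts, with ERMN at 1.22, the filament genes, with VIM at -1.89, and the reactive astrocyte genes are not drawn.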

How the data were processed

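Raw UMI counts per gene and barcode were deposited by the authors, with no normalization, per the file headers (software version 3.1.0) and the whole-number values. The submitters' processing notes name Cell Ranger 2.1.1 and 6.2.1. The aligner, genome build and annotation are not given in the sources used here, so no coordinates or sequences are printed.

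Nuclei with at least 500 genes were kept, and Scrublet (scanpy 1.11.5, Python 3.11.15) removed 830 (11.7%) and 1458 (15.2%) as doublets, against expected rates of 5.67% and 7.69%. Both libraries were clustered together (2000 variable genes without CRYAB and MIF, 30 principal components, 15 neighbours, Leiden at resolution 1, no integration). No mitochondrial filter and no correction for free RNA were applied. For each library and class, summed UMIs were given as CPM. With 1 library per band there is no test and no p-value. Sums carry exact Poisson, shares Clopper-Pearson and ratios exact conditional binomial intervals at 95%, which cover counting error only. In the comparison with 2-fold a count of 0 was set to a floor of 3 UMIs. Genes with at least 50 UMIs in a class were tested against 2-fold, which here means compared with that fold.

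Named genes were CRYAB and MIF, the listed genes, the 5 genes most like each member, and up to 10 genes at least 2-fold higher in the most classes. The members, lists and rules were chosen with earlier results of these data known. The ratio code was run on simulated counts with known folds, which checks its arithmetic and not the bands. Alternatives were the CPM averaged over nuclei, another scaling, other doublet and gene minimums, thinning, other clusterings and equal weights. An oligodendrocyte transcript and an alternative that needs it are not reported here.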

Additional observations from a re-analysis of the deposited data

Results flagged for a closer look

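MIF had a log2 ratio of -0.57 (-1.42 to 0.21) in the vascular or leptomeningeal-like cluster, with 58 and 18 UMIs, whereas in each of the 5 classes compared in full its ratio was above 0. It was picked out because this class pointed the other way, and the difference between the classes was not tested.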

How the results depend on the processing

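No paired analysis was possible because each band came as a single library, and for the same reason no library could be left out. The 12 ratios of CRYAB and MIF were recomputed in 111 alternatives. Of these, 105 stayed within the counting interval of the main value given above, 6 fell outside it and 0 turned direction. Over all nuclei, the mean of each nucleus's CPM gave 2.47 for CRYAB and 0.81, under 2-fold, for MIF, and thinning gave 2.39 for CRYAB. Thinning also gave 1.40 for CRYAB in inhibitory neurons, 1.45 for MIF in excitatory neurons and 1.87 for MIF in inhibitory neurons. The thinned CRYAB values had intervals of 2.15 to 2.65 over all nuclei and 0.39 to 2.48 in inhibitory neurons. Those of the thinned MIF values were 1.02 to 1.89 in excitatory and 1.15 to 2.65 in inhibitory neurons. Each of these intervals held the main value. The cause of the shifts was not tested. In precursors thinning gave 0.96 (-1.04 to 3.48) for CRYAB and no value for MIF, which had no UMI in the upper band. In oligodendrocyte-like nuclei the ratios ran from 1.91 to 2.09 for CRYAB and from 0.43 to 0.78 for MIF. In astrocyte-like nuclei they ran from 1.46 to 1.86 for CRYAB and from 0.23 to 0.50 for MIF, where 7 intervals held 0. The share of genes at least 2-fold higher depended on the minimum of UMIs. With 20 UMIs it was 1.32% in excitatory neurons, 1.17% in inhibitory neurons, 2.74% in astrocyte-like nuclei, 1.8% in oligodendrocyte-like nuclei and 3.35% in precursors, and with 1 UMI it was 3.08%, 4.42%, 5.18%, 4.39% and 7.04%. The oligodendrocyte-like ratios with the ENPP6 cluster were added after the data had been seen. Counts under 50 UMIs, of both genes in precursors and microglia and of CRYAB in vascular nuclei, limit what can be read there.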

Other observations

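Other genes with a symbol were also at least 2-fold higher in the deeper band in more than 1 class. KLK6 had log2 ratios of 1.82 in excitatory neurons and 1.19 in oligodendrocyte-like nuclei, and PPP1R14A, an inhibitor of myosin phosphatase, had 1.37 and 1.16. APOD was past 2-fold in astrocyte-like nuclei (1.22) and precursors (1.24). OXT, the oxytocin precursor, had 1.50 in excitatory neurons and 1.03 in oligodendrocyte-like nuclei. The zinc receptor GPR39 was past 2-fold in inhibitory neurons (1.26) and oligodendrocyte-like nuclei (1.81) but had -0.25 in excitatory neurons. GBA2, a glucosylceramidase, had 1.34 in inhibitory neurons, 1.18 in astrocyte-like nuclei and -0.15 in excitatory neurons. TRMT112, an activator of methyltransferases, had 1.09 in inhibitory neurons and 1.21 in oligodendrocyte-like nuclei. These values are descriptions of 2 libraries.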
